A study of Mus musculus with 2 samples.

Results

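Fcgbp, Clca1, Zg16, Agr2, Spink4, Tff3, Clps, Ccl6, Hepacam2 and Nov are 10 of the 19294 gene symbols in a Drop-seq count matrix of mouse colon crypt cells, and most of them encode proteins that goblet cells release or need for release, other than mucins. The genes were chosen by symbol, on the levels they had shown in the secretory cells of this matrix, so their levels across the clusters are given as a description without a test. All 10 symbols had a row. Crypt cells came from Tcf4GfpCre/+ RosamTmG/+ mice on the C57BL/6 strain, aged 4 to 10 months, which had no pretreatment. Cre was driven from the Tcf4 locus, so the animals were heterozygous for Tcf4, and the reporter turned from membrane Tomato to membrane GFP in every cell whose lineage had used that promoter. Cells that kept Tomato alone (Tcf4 Lin-) and cells with both colours (Tcf4 DP) were sorted, and human cells were added to each sort on its own before Drop-seq. The labels, which give both sorts together, name a pool of samples 1 to 3 and a pool of samples 4 to 6 under the same condition. Barcodes carried a suffix, X1 or X2, that could not be assigned to a pool or to a sort, and the 2 sets shared 0 barcode sequences. All cells were therefore 1 sample without replicates.

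Goblet cells of the colon fill their apical granules with the gel-forming mucin Muc2 and with smaller proteins, and release them as the mucus that keeps bacteria away from the epithelium. Mucin is folded and joined by disulfide bonds in the endoplasmic reticulum, receives its O-glycans in the Golgi, and unfolds into a net after release, where other secreted proteins bind, cut or cross-link it. The goblet lineage is 1 branch of the secretory cells that arise near the crypt base, while absorptive precursors give rise to colonocytes.

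The matrix held 1023641 unique molecular identifiers (UMIs), over 1042 barcodes with suffix X1 and 75 with X2. Each UMI stands for 1 captured transcript end, so levels were not divided by gene length. The authors' cluster lists placed 106 barcodes in 3 epithelial subclusters, named stem cells (32), secretory precursors (32) and absorptive precursors (42), and 362 among intraepithelial lymphocytes (IELs). The summed depth of these groups, in the same order with IELs last, was 69046, 128664, 151780 and 425182 UMIs, with medians of 995.5, 1820.5, 1939.5 and 1038 UMIs per cell. The lists contradicted each other for 14 of the 106 cells, 3 of them secretory, which were IELs in the list of all cells. The deepest of the 14 were a stem cell of 23205 UMIs and an absorptive precursor of 23171 UMIs. These held 0 UMIs of T cell markers, and 396 and 588 of epithelial markers. Among the 106, 21 barcodes fell into 7 families in which a barcode differed at 1 base from another of the same suffix, and 9 secretory precursors were in 3 of these families. Whether the barcodes of a family came from the same cell was not tested, but joining them left 92 cells, 26 of them secretory. Both features are followed below because a few deep or related barcodes held much of the signal.

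Secretory precursors had the highest level of 9 of the 10 genes among the 3 subclusters. Tff3 was highest in absorptive precursors, but 1 cell held 138 of its 218 UMIs there, and no direction is given for it below. Levels are UMIs per 1000000 (CPM) with an exact Poisson 95% interval, which covers counting error only, as do all intervals given here. The sum of the 10 genes was 58338 CPM (57026 to 59673) in secretory precursors, or 5.83% of their UMIs, against 16757 CPM (15805 to 17751) in stem cells and 7583 CPM (7152 to 8034) in absorptive precursors. Secretory precursors thus held 5.58 times (5.33 to 5.85, exact binomial interval) the level of the other 74 epithelial cells, a fold that ran from 2.32 to 12 over the alternatives described below. The fold was at least 2 for 9 of the 10 genes, where 9.16% of the 3013 genes with at least 20 UMIs in the subclusters reached it. The median fold was 5.73 over the 10 genes and 0.837 over all 3013, and since the genes were chosen on this contrast nothing is read from that distance.

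**Figure D1:**
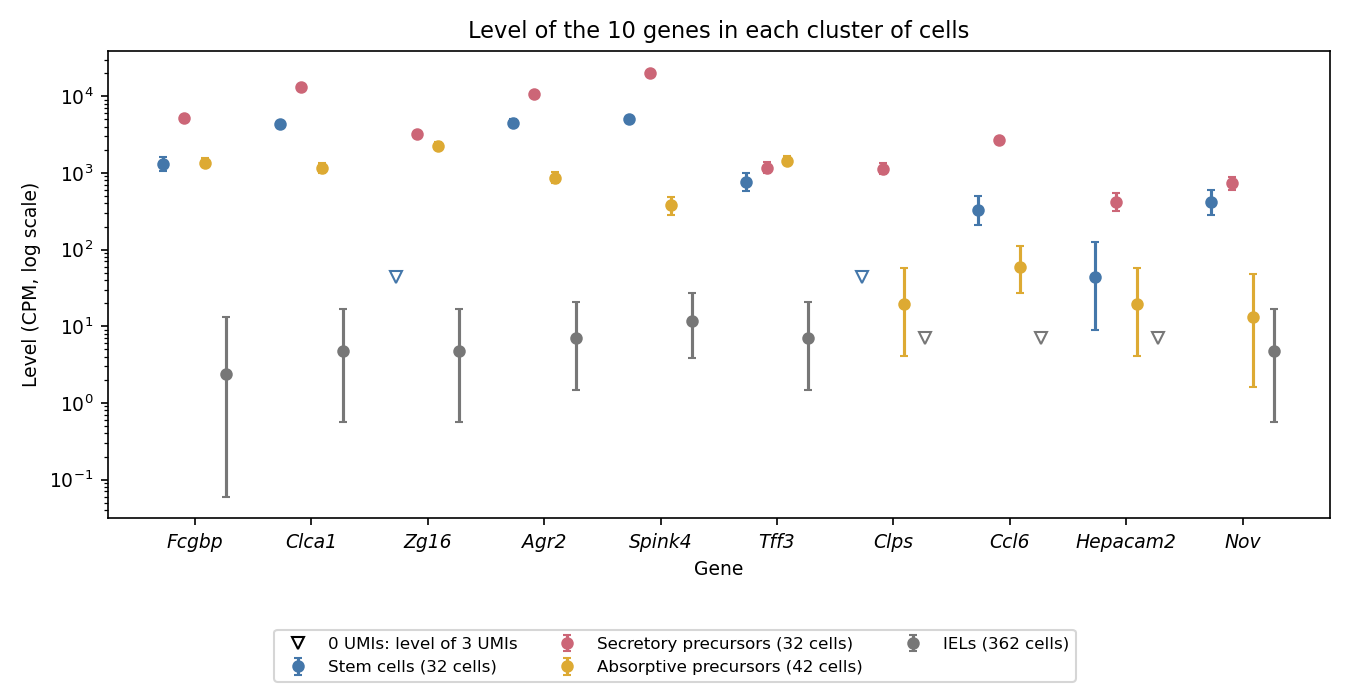
Level of each of the 10 genes in CPM (log axis) in the 3 epithelial subclusters and in IELs, with exact Poisson 95% intervals; open triangles mark 0 UMIs and stand at the level of 3 UMIs. Secretory precursors were highest for 9 genes, and the IEL level was at most 11.8 CPM.

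IELs, lymphocytes in which goblet products are foreign, gave the background. The 362 leave out the 14 subcluster cells that the list of all cells calls IELs, of which 3 alone held 1009, 985 and 496 UMIs of the 10 genes. The 425182 UMIs of the 362 included 18 of the 10 genes, or 42.3 CPM (25.1 to 66.9), in 18 of 362 cells (4.97%, exact Clopper-Pearson interval 2.97 to 7.74%). No IEL held more than 1 such UMI, and the 47 B cells held 5 in 5 cells. Clps, Ccl6 and Hepacam2 had 0 UMIs in IELs, which allows a level of up to 8.68 CPM, and each of the other 7 had between 1 and 5.

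Fcgbp encodes a large mucus protein that binds the IgG Fc part and is joined to the Muc2 net. Its secretory level was 5231 CPM (4843 to 5641) from 673 UMIs, while stem cells held 91, absorptive precursors 207 and IELs 1. At least 1 UMI was found in 24 of 32 secretory precursors (75.0%, 56.6 to 88.5%), against 17.6% (9.70 to 28.2%) of the other epithelial cells. The level of stem cells was 0.966 times (0.747 to 1.24) that of absorptive precursors, but 1 stem cell held 84 of the 91 UMIs. Without the top cell of each, the levels were 153 and 832 CPM.

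Clca1, a secreted metalloprotease that cuts and loosens mucus, was found in a similar number of secretory precursors as Fcgbp but at a higher level. Its secretory level was 13220 CPM (12600 to 13864) from 1701 UMIs, in 22 of 32 cells (68.8%, 50 to 83.9%). In stem cells 296 of its 297 UMIs lay in 1 cell, so 2 of 32 cells held the gene although the level was 4301 CPM. Without that cell the stem cell level was 21.8 CPM. Both Fcgbp and Clca1 were found in 21 secretory precursors, where 16.5 would follow from independent detection, and 7 secretory precursors had neither. In the 21 cells the ratio of Clca1 to Fcgbp UMIs had a median of 1.86 and ran from 0.667 to 48.0.

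Zg16, a lectin-like protein of the granule that binds the wall of Gram-positive bacteria, had a different distribution. Secretory precursors held 413 UMIs and absorptive precursors 344, and stem cells held 0, which allows up to 53.4 CPM. The secretory level of 3210 CPM (2908 to 3535) was 1.42 times (1.22 to 1.64) the absorptive 2266 CPM, and 2.06 times (1.78 to 2.38) that of all other epithelial cells. Few cells carried it: 5 of 32 secretory precursors (15.6%, 5.28 to 32.8%) and 6 of 42 absorptive precursors (14.3%, 5.43 to 28.5%), with wide intervals that do not separate these subclusters. A single secretory precursor of 12713 UMIs held 257 of the 413 UMIs (62.2%), and 3 cells held 98.3%. Leaving that cell out brought the fold to 0.864. The 5 secretory cells with Zg16 held 357 of the 673 Fcgbp UMIs of the subcluster and 855 of the 1342 of Ang4, an antimicrobial ribonuclease, from 32011 of its 128664 UMIs. Clca1 (858 of 1701 UMIs) and Tff3 (92 of 151) were concentrated there too. The cell of 12713 UMIs alone held 423 and 77 of these. Hepacam2 had 21 of 54 UMIs there, Retnlb 205 of 598, Nov 27 of 94, Ccl6 63 of 341 and Clps 23 of 146. Spink4, Agr2, Muc2 and Reg4 were not concentrated there in the same way. The same cells held 666 of the 2564 UMIs of Spink4, 212 of the 1369 of Agr2, 290 of the 1557 of Muc2 and 171 of the 842 of Reg4.

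Agr2 encodes a protein disulfide isomerase that resides mainly in the endoplasmic reticulum, where mucin production needs it, and so is a goblet gene but mostly not a secreted product. Its secretory level was 10640 CPM (10084 to 11219) from 1369 UMIs. Spink4, of the Kazal-type protease inhibitor family, reached 19928 CPM (19164 to 20714) from 2564 UMIs and made up 34.2% of the UMIs of the 10 genes in secretory precursors. These genes were the most widely found. Each was present in 30 of 32 secretory precursors (93.8%, 79.2 to 99.2%), against 36.5% (25.6 to 48.5%) of the other epithelial cells for Agr2 and 25.7% (16.2 to 37.2%) for Spink4. Agr2 and Spink4 were present together in all 29 secretory precursors without an IEL label, and the 2 secretory precursors that lacked both (1239 and 923 UMIs) carried an IEL label and held 1 UMI of the 10 genes. All 10 UMIs of tuft cell markers in the subcluster lay in these 2 cells. In the 30 cells the ratio of Agr2 to Spink4 UMIs had a median of 0.397 and ran from 0.0455 to 2.10.

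Tff3, a trefoil peptide that goblet cells release for mucosal repair, did not follow the other 9 genes. Its level was 1436 CPM (1252 to 1640) in absorptive precursors from 218 UMIs, 1174 CPM (994 to 1376) in the secretory ones from 151, and 768 CPM (575 to 1004) in stem cells from 53. The intervals of secretory and absorptive precursors overlapped. Secretory precursors had 0.956 times (0.778 to 1.17) the level of the other epithelial cells. By cells the order was not the same, with 11 of 32 secretory (34.4%, 18.6 to 53.2%), 6 of 32 stem (18.8%) and 7 of 42 absorptive cells (16.7%, 6.97 to 31.4%) holding a UMI, so no order is read from the share. The level rested on few cells, since 1 absorptive precursor of 23171 UMIs with an IEL label held 138 of the 218 UMIs and 1 secretory precursor held 77 of the 151. Without the 4 deepest cells that carried an IEL label (19945 to 23205 UMIs), a selection made after the values were seen, the fold was 2.11. The fold was also above 1, at 1.98 (1.53 to 2.58) with cells epithelial in both lists, 1.74 (1.37 to 2.22) without the absorptive precursor of 138 UMIs and 1.63 (1.12 to 2.35) with X2, while leaving out the secretory precursor of 77 UMIs took the secretory level to 638 CPM. The fold was 0.816 (0.635 to 1.04) with X1 and 0.861 when CPM was averaged cell by cell, and no direction is given for Tff3.

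Clps encodes colipase, the cofactor of pancreatic lipase. It was nearly restricted in level to secretory precursors, with 146 of the 149 UMIs of the 3 subclusters (1135 CPM, 958 to 1334), and the other 3 lay in 1 absorptive precursor. Stem cells had 0 UMIs, which allows up to 53.4 CPM. It was found in 16 of 32 secretory precursors (50%, 31.9 to 68.1%) and in 1 of the other 74 epithelial cells (1.35%). Of 12 markers of pancreatic acinar cells, where Clps is best known, 1 had a row, the elastase Cela1. Its level was 117 CPM (65.3 to 192) in secretory precursors and 567 CPM (453 to 700) in absorptive precursors, the reverse of Clps.

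Ccl6 encodes a C-C chemokine best known from myeloid cells. Of its 373 UMIs in the subclusters, 341 lay in secretory precursors (2650 CPM, 2376 to 2947), 23 in stem cells and 9 in absorptive precursors. It was found in 23 of 32 secretory precursors (71.9%, 53.3 to 86.3%) and 10.8% (4.78 to 20.2%) of the other epithelial cells. Of 12 markers of macrophages and granulocytes 11 had a row, and together they gave 3 UMIs (23.3 CPM, 4.81 to 68.1) in the secretory subcluster, 13 in the absorptive and 5 in the stem cell one. The most abundant was Cd14 with 19 UMIs in the subclusters, while Csf1r, Adgre1, Lyz2, C1qa and Itgam had 0 in secretory precursors. In the 23 secretory precursors with Ccl6, 3 UMIs of the list were found.

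Nov, the former symbol of the matricellular growth regulator Ccn3, was the scarcer of the secreted signals. Secretory precursors held 94 UMIs (731 CPM, 590 to 894) and absorptive precursors 2, and of the 29 in stem cells (420 CPM, 281 to 603) 1 cell held 28. It was found in 16 of 32 secretory precursors (50%, 31.9 to 68.1%), 2 stem cells and 1 absorptive precursor. The secretory level was 1.74 times that of stem cells, with an interval that lay above 1 and ended at 2.74. Fibroblast and smooth muscle markers, a list that bears on Nov because mesenchyme also makes it, had 1 UMI in secretory precursors over 6 of 9 genes with a row, with Col1a1, Pdgfra and Acta2 at 0.

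Hepacam2 encodes a membrane protein of the immunoglobulin superfamily, so it marks these cells but is not a released product. Its 60 UMIs in the subclusters were 54 in secretory precursors (420 CPM, 315 to 548) and 3 in each of the others, and IELs had 0. It was found in 16 of 32 secretory precursors (50%, 31.9 to 68.1%) and 5.41% (1.49 to 13.3%) of the other epithelial cells. No cell held more than 9 of its UMIs, and 4 cells held at least 50% of them in secretory precursors, where 1 cell did for Zg16 and Tff3. Tuft cell markers, another cell type in which Hepacam2 is known, had a row for 7 of 8 genes, and their 10 UMIs lay in the 2 secretory precursors without Agr2 and Spink4, with Dclk1 at 0. Of the 16 secretory precursors with Hepacam2, 1 held UMIs of this list.

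Shares depend on depth, so each cell was also taken at an exact expectation for 800 UMIs, which left out 3 secretory, 9 stem, 6 absorptive and 98 IEL cells. Spink4 and Agr2 kept shares of 93.1% and 90.8% in secretory precursors at that depth. Clca1 (61.8%), Ccl6 (61.7%) and Fcgbp (60.7%) formed a middle group, and Clps (31.6%), Nov (28.0%), Hepacam2 (22.0%), Tff3 (19.9%) and Zg16 (14.2%) a lower one. The same 10 shares in IELs were at most 0.821%. For Clps, Nov and Hepacam2 the share of 50% before thinning rested on deeper cells, and the 16 cells with Clps had a median of 4593.5 UMIs where the 16 without had 1182. The share of Zg16 hardly changed, from 15.6% to 14.2%, and its deepest secretory cell without a UMI had 19945 UMIs.

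Secretory precursors held UMIs of a median of 6 of the 10 genes, against 1 in stem cells, 0.5 in absorptive precursors and 0 in IELs. At least 5 genes were found in 24 of 32 secretory precursors, at least 8 in 9, and all 10 in the cells of 12713 and 8494 UMIs. The count followed depth: the 10 secretory precursors with at least 4000 UMIs, a limit set after the values were seen, had a median of 8.5 genes and the other 22 had 5.5. At 800 UMIs a cell the median was 4.93. As a share of a cell's own UMIs the signal was high in shallow and deep cells alike. The 10 genes made up a median of 4.71% of the UMIs of a secretory precursor, with a highest value of 9.78%, and more than 1% in 30 of 32 cells. That share reached 8.65% in a cell of 636 UMIs and 8.67% in 1 of 12713 UMIs.

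**Figure D2:**
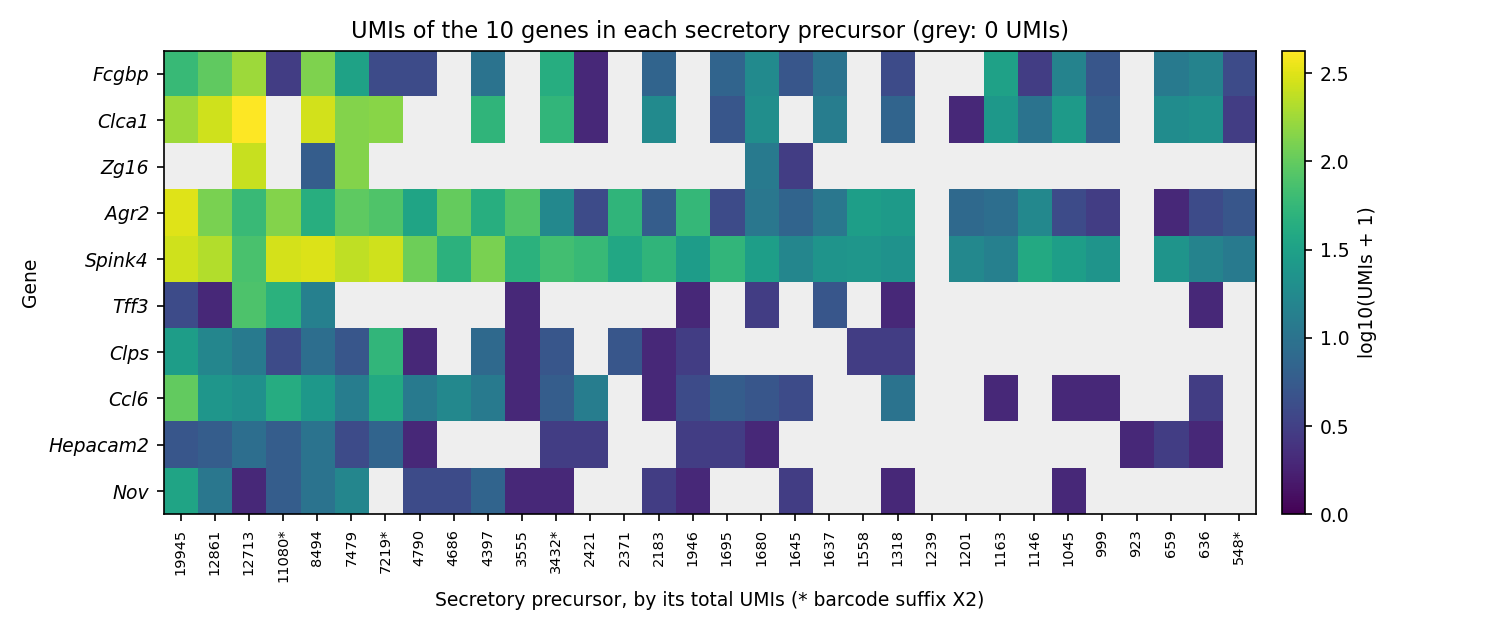
UMIs of each of the 10 genes, as log10(UMIs + 1) in colour, in each of the 32 secretory precursors ordered by total UMIs, with grey for 0 UMIs. Agr2 and Spink4 fill 30 columns, Fcgbp and Clca1 share 21, and Zg16 is present in 5.

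**Figure D3:**
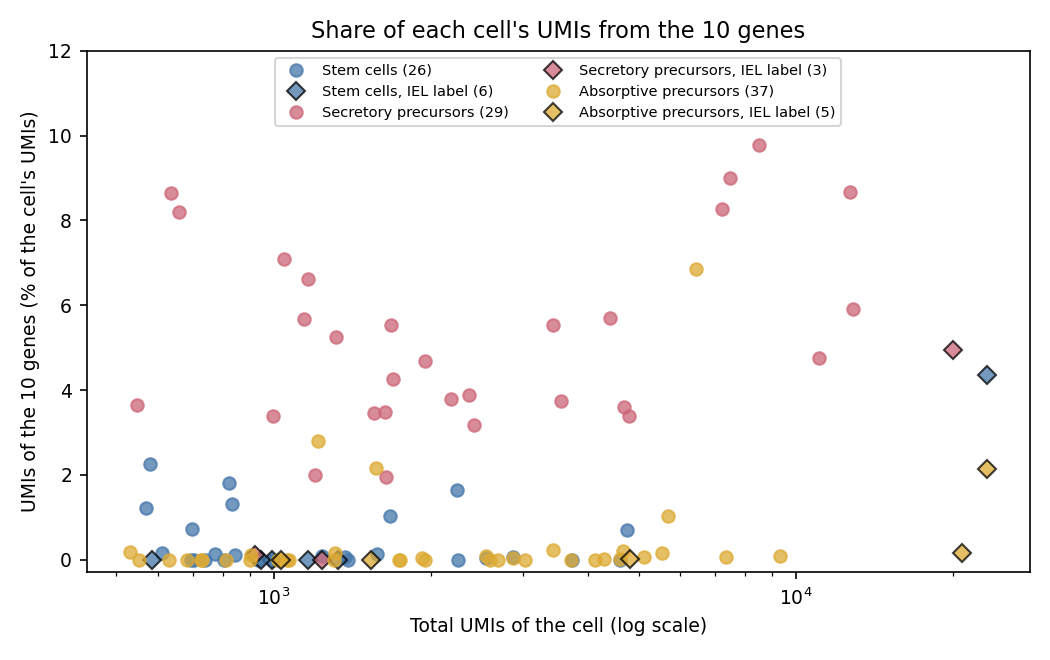
Share of a cell's UMIs from the 10 genes (percent) against its total UMIs (log axis) for the 106 epithelial cells; diamonds carry an IEL label in the list of all cells. Of the secretory precursors 30 of 32 lie above 1%, with 7 stem cells and 5 absorptive precursors above it.

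Within secretory precursors 40 of the 45 gene pairs were found together in more cells than independent detection gives, or 88.9%. Of the 4495501 pairs tested among genes with at least 20 UMIs, 84.9% were. These pairs do not cover all of the 3013 genes with at least 20 UMIs. The count of 40 is near the background and is not a result about these genes. It was 24 with cells epithelial in both lists, 10 with X2, and 44 with joined barcodes or with 2 UMIs required. With X2, Fcgbp, Agr2 and Spink4 were in all 4 cells and Zg16 in 0, so their pairs could not exceed independence. Clps and Nov were found together in 13 cells where 8 would follow from independence, and Ccl6 and Nov in 16 where 11.5 would. These 3 genes were found in deeper cells, and no background for the size of an excess was computed. Clca1 went below independence with Clps and with Nov, at 10 cells where 11.0 would follow.

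Levels within the 32 secretory precursors, as log2(UMIs per 10000 + 1), gave a further description. Pearson's r is a description here, over cells (28 with X1 and 4 with X2) that are not replicates and differ in depth. Its median was 0.23 over the 45 pairs and 0.0375 over the 4519521 pairs of 3007 genes, a background not matched for level. It reached 0.5 for 1.78% of all pairs and for 3 of the 45: Fcgbp with Clca1 (0.86), Agr2 with Spink4 (0.69) and Ccl6 with Nov (0.52). With the barcodes of each family joined (26 cells, an alternative chosen after seeing the data) these were 0.81, 0.78 and 0.48. Fcgbp had an r of -0.02 with Agr2, but 0.22 with joined barcodes and 0.53 over the 106 epithelial cells. Of the 7 secretory precursors without Fcgbp and Clca1, 5 held 318 UMIs of Agr2, 182 of Spink4 and 239 of Muc2 but 0 of Reg4. Of these 5 cells, 4 belonged to 1 barcode family, with 82, 51, 55 and 29 Agr2 UMIs, which may not be separate cells. A second family of 3 secretory precursors differed from it in each barcode. It held 14, 11 and 14 UMIs of Fcgbp and 26, 18 and 20 of Clca1 but 3, 1 and 3 of Agr2. Spink4 was present in both families, with 29, 22 and 14 UMIs in the second and 47, 37, 27 and 23 in the first.

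Outside the secretory subcluster most UMIs of the 10 genes lay in a handful of barcodes, although 38 of the 74 cells held at least 1. In stem cells 1 cell of 23205 UMIs, with suffix X2 and an IEL label, held 1009 of the 1157 UMIs (87.2%), and the other 31 cells had 3229 CPM. In absorptive precursors 3 cells held 86.4% of the UMIs, and the level without them was 1339 CPM. Of these, 1 cell (6429 UMIs, suffix X2, no IEL label) drew 6.86% of its UMIs from the 10 genes, within the secretory range, with 128 UMIs each of Clca1 and Zg16 and 66 of Muc2. None of the 10 genes was seen in 15 of 32 stem cells and in 21 of 42 absorptive precursors.

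The make-up of the signal also differed between subclusters. Zg16 made up 29.9% (27.3 to 32.6%) and Tff3 18.9% (16.7 to 21.3%) of the UMIs of the 10 genes in absorptive precursors, against 5.50% (5.00 to 6.04%) and 2.01% (1.71 to 2.36%) in secretory precursors. Spink4 went the other way, with 4.95% (3.77 to 6.37%) and 34.2% (33.1 to 35.2%). In stem cells Zg16 made up 0% and Spink4 30.1% (27.4 to 32.8%). That make-up is mostly of 1 barcode, since the stem cell of 23205 UMIs with an IEL label held 1009 of the 1157 UMIs. It held 262 of the 348 of Spink4. With X1 alone, which leaves that cell out, Spink4 gave 71 of the 120 UMIs in stem cells. The summed signal in absorptive precursors was thus not made up in the same proportions as in secretory precursors, but few barcodes carried it. The absorptive precursor of 6429 UMIs supplied 128 of the 344 Zg16 UMIs and 52 of the 218 Tff3 UMIs. The deepest absorptive precursor, which had an IEL label, supplied 185 and 138 of these. A barcode of 1572 UMIs that differed from it at 1 base, and was epithelial in both lists, held 9 UMIs of Zg16 and 14 of Tff3 as well.

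Folds were unequal between the barcode suffixes. With X1 alone, 28 secretory precursors against 51 other epithelial cells, the summed fold was 10.7 and 9 of the 10 genes had a fold of at least 2. With X2 alone, 4 against 23 cells, it was 2.78 and 5 genes did. The summed secretory level was nearly the same in both, 58016 CPM (56577 to 59481) and 59877 CPM (56707 to 63179), and the other epithelial cells had 5428 CPM (5064 to 5811) with X1 and 21546 CPM (20464 to 22672) with X2. Single cells carried much of both values, since 1 cell held 1009 of the 1483 UMIs with X2 and 1 held 496 of 825 with X1. Without these cells the levels were 10389 and 2554 CPM, and 3 cells held 98.5% of the UMIs with X2. Fcgbp (0.931, 0.664 to 1.28), Nov (0.618, 0.210 to 1.51) and Zg16 (at most 0.0724 if 0 is taken as 3 UMIs) fell below 1 with X2, the first 2 with intervals that include 1. Zg16 had 0 UMIs in the 4 secretory precursors there, which allows up to 166 CPM, and 1 cell held all 128 of the others. For Nov 1 cell held 28 of the 30 UMIs of the others, and without it their level was 43.8 CPM against 269 in secretory precursors. Ccl6 was at 22.9 (13.9 to 40.8) with X1 and 16.2 (9.43 to 29.7) with X2. Without the 4 deepest cells with an IEL label the summed fold was 12 and 10 of the 10 genes reached 2. That step leaves out cells with epithelial content, since the cells of 23205 and 23171 UMIs held epithelial markers and 0 UMIs of T cell markers.

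**Figure D4:**
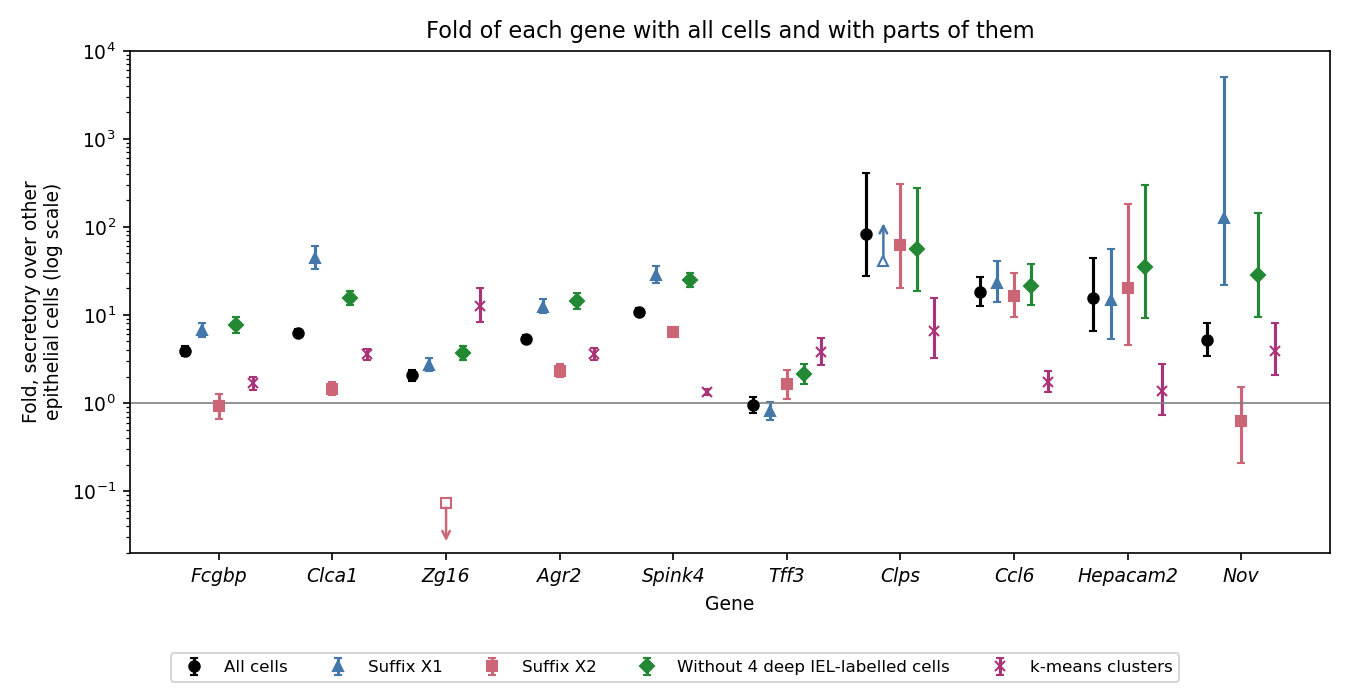
Fold of each gene in secretory precursors over the other epithelial cells (log axis) with exact 95% intervals, for all cells, each barcode suffix, without the 4 deepest cells with an IEL label, and with clusters made again by k-means without the 10 genes; open symbols with arrows are bounds. With X2 alone Fcgbp, Zg16 and Nov lie below 1, and Clps, Ccl6 and Hepacam2 stay above 10 for both suffixes.

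Clusters made again by k-means from 1000 variable genes without the 10 gave a lower summed fold of 2.32. Of the 106 cells 59 then fell in the matching subcluster, and 14 of the 32 secretory precursors did, in a cluster of 38 cells. In that division Spink4 was at 1.33, Hepacam2 at 1.36 (0.725 to 2.74), Fcgbp at 1.67 and Ccl6 at 1.72 (1.32 to 2.28). Zg16 rose to 12.6 and Tff3 to 3.81, while Clps (6.64), Nov (3.90), Agr2 (3.59) and Clca1 (3.56) stayed above 2. The method, the genes used and the cells compared changed together, so what moved the folds was not tested.

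The genes most like each of the 10 were taken by r over the 106 epithelial cells. They came from 3003 genes with at least 20 UMIs in at least 10 cells. Other genes of the 10 filled 10 of the 30 places, and Clps, Hepacam2 and Nov filled none. Muc2 stood first for Spink4 (0.91) and Agr2 (0.84), and Clca1 and Fcgbp stood first for each other (0.87). The pentraxin gene Mptx1 was among the first 3 for Fcgbp (0.82), Clca1 (0.82), Spink4 (0.78) and Ccl6 (0.70), and the resistin-like Retnlb for Clca1 (0.85) and Fcgbp (0.73). Clps had other neighbours, the intelectin Itln1 (0.70), Nupr1 (0.67) and Tspan13 (0.65). For Nov they were Tspan13 (0.69), Ccl6 (0.68) and Ramp1 (0.67), and for Hepacam2 Tceb3 (0.64), Ccl6 (0.58) and Tmem263 (0.58). Zg16 and Tff3 had the weakest, with Sval1 (0.57), Alcam (0.54) and Tff3 (0.52) for Zg16, and Zg16 (0.52), Fcgbp (0.44) and Ctbp2 (0.41) for Tff3. The sum of the 10 was most like Muc2 (0.87), Mptx1 (0.76), Reg4 (0.69), Retnlb (0.66), Klk1 (0.65), Ramp1 (0.61), Tspan13 (0.60), Rep15 (0.59), Ly6e (0.58) and Nupr1 (0.58). With joined barcodes 22 of the 30 single neighbours and 8 of these 10 stayed among the first 3 and the first 10, and this check was added after the values were seen.

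Other genes of the goblet program were higher in secretory precursors in part. Of 12 regulators of the lineage all had a row, 9 had at least 20 UMIs and 6 of these had a fold of at least 2, which 9.16% of all genes had, with a median of 2.80. The 4 with the most UMIs were Klf4 (0.921, 0.624 to 1.34), Sox9 (1.51, 1.05 to 2.18), Creb3l1 (3.10, 2.03 to 4.79) and Xbp1 (3.92, 2.30 to 6.90). Of 20 mucins and other goblet genes 19 had a row and 10 of 16 reached a fold of at least 2, with a median of 2.39. Below 1 were Muc3 (0.0479), Lypd8 (0.353) and Muc13 (0.772), named after their values were seen. Summed, this list was at 39498 CPM (38420 to 40599) in secretory precursors, below the 58338 CPM of the 10 genes. It was at 13643 CPM (12786 to 14543) in stem cells and 7781 CPM (7344 to 8238) in absorptive precursors. Of the 236 UMIs of Muc2 in stem cells, 213 lay in the cell of 23205 UMIs with an IEL label. The enzymes that build mucin O-glycans had 15 of 16 rows and 9 of 12 at a fold of at least 2, with a median of 3.84. Their most abundant members were St6galnac6 (1.78, 1.29 to 2.47) and Galnt7 (4.41, 2.96 to 6.72). Of 20 genes of the endoplasmic reticulum and Golgi, 10 of 19 reached a fold of at least 2, with a median of 2.43, but the chaperones Hsp90b1 (1.01) and Hspa5 (1.68, 1.40 to 2.02) did not.

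Markers of other cell types varied in secretory precursors. Enteroendocrine markers had 5 of 10 rows and 1 UMI (7.77 CPM, 0.197 to 43.3), but Reg4, which the authors count among such markers, was placed with the goblet genes and had 842 UMIs in 24 of 32 cells. T cell markers had 6 of 6 rows and 1 UMI, of Ptprc, with Cd3e, Cd3g, Cd3d, Cd8a and Trac at 0, against 6560 CPM (6318 to 6808) in IELs. B cell markers had 4 of 4 rows and 1 UMI. Paneth cell markers had 3 of 6 rows and 529 CPM (410 to 670), against 101 in stem cells, 46.1 in absorptive precursors and 0 UMIs in IELs. In secretory precursors Itln1 gave 57 of these UMIs and Lyz1 gave 0. Colonocyte markers had 8 of 8 rows, and their 1034 CPM (865 to 1225) in secretory precursors stood below the 4072 CPM (3757 to 4406) in absorptive precursors, with Car2 the most abundant. Krt20 had 0 UMIs in secretory and 16 in absorptive precursors, and Car4 and Aqp8 had 0 in both. Epithelial markers were at 16353 CPM (15661 to 17067), led by Pigr. That was below the 21681 CPM (20597 to 22808) in stem cells and the 23112 CPM (22354 to 23890) in absorptive precursors.

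The 10 genes lie apart in the genome. In the GRCm38 build with GENCODE M21 annotation they are protein-coding genes on chromosomes 3, 4, 6, 7, 11, 12, 15 and 17, with pairs on chromosome 7 (Fcgbp at chr7:28071236-28120862 and Zg16 at chr7:127050156-127087328) and chromosome 17 (Tff3 at chr17:31125306-31129646 and Clps at chr17:28558149-28560766). Zg16 and Ccl6 overlap annotated transcripts on the other strand, and the strand setting of the counts is not given in the sources used here.

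RefSeq (GRCm38.p6) gave a promoter for 4 of the 10 genes, from 250 bases before to 50 after the start of transcription: Hepacam2 (chr6:3494449-3494748, minus strand), Fcgbp (chr7:28070986-28071285, plus strand), Ccl6 (chr11:83593038-83593337, minus strand) and Agr2 (chr12:35992675-35992974, plus strand). For Hepacam2 this stretch lies inside the GENCODE gene (chr6:3457096-3498298, minus strand), so RefSeq and GENCODE start this gene at different positions. Capitals mark matches on either strand to 4 motifs. These were a TATA-like box written TATANA, the E-box CANNTG that basic helix-loop-helix factors bind, the forkhead factor motif TGTTTAC, and the motif ACGTG found in promoters of the unfolded protein response.
Fcgbp: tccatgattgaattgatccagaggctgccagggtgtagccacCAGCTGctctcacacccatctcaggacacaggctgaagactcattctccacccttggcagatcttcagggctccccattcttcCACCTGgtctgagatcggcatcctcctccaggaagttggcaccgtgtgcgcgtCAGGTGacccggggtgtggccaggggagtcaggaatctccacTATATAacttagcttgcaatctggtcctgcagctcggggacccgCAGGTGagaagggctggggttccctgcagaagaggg
Hepacam2: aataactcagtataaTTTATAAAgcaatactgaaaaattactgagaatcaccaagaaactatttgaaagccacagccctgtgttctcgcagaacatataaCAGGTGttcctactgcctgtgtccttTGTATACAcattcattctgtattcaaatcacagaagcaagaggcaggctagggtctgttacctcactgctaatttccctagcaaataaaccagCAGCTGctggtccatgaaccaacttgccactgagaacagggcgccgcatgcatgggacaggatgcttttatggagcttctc
Agr2: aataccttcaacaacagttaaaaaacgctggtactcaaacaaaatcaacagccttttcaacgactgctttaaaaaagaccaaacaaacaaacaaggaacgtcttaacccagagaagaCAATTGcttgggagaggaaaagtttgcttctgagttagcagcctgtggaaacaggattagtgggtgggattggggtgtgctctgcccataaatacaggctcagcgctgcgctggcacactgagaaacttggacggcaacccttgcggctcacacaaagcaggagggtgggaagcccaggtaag
Ccl6: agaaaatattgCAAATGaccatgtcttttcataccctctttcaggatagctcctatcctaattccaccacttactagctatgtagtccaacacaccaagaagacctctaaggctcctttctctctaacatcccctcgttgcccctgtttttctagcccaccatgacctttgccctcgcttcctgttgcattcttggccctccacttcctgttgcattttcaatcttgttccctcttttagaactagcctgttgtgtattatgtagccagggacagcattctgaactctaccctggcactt
CANNTG was present in 4 of 4 and in 72.3% of the 32851 promoters of the table, and CAGCTG in 2 of 4 (Fcgbp and Hepacam2) and 16.3%. TATANA was present in 2 of 4 (Fcgbp and Hepacam2) and 24.7%, and in Fcgbp it began 30 bases before the start. TGTTTAC, in 3.65% of all promoters, and ACGTG, in 19.6%, were in 0 of the 4. With 4 promoters these counts describe the sequences alone.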

How the data were processed

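Crypt cells of the 2 pools were profiled by Drop-seq, and the authors deposited whole UMI counts per gene symbol and barcode in 1 matrix, without normalization. STAR 2.5.0 and Picard 1.137 are credited in the submitters' processing notes, which give hg19 and mm10 as genome builds. The authors used the McCarroll laboratory's Drop-seq pipeline, and human cells had been added to the mouse cells. The gene annotation and the settings for joining UMIs and filtering cells are not given in the sources used here. Cells were assigned by barcode through the authors' cluster assignment lists, and no doublet caller was run. The members and lists were chosen with earlier results of these data known. CPM, shares and folds had exact Poisson, Clopper-Pearson and conditional binomial 95% intervals, and a count of 0 was taken as 3 counts. No p-value was computed, since the matrix is 1 sample. Fold and thinning code was tested on simulated data. Named genes were the 10 members, the 2 to 4 list genes with the most UMIs, and the nearest 3 genes to each member and 10 to their sum by Pearson's r, with other marker genes named after their values were seen. Alternatives were each cell's own CPM, totals that left out mitochondrial and ribosomal genes, each suffix, cells epithelial in both lists, cells without T cell UMIs, joined barcodes, leaving out the top cell, k-means clusters, 2 UMIs and 800 UMIs per cell. Analyses used Python 3.11.15, numpy 2.4.6, scipy 1.17.1, pandas 2.3.3, scikit-learn 1.9.0 and matplotlib 3.10.9.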

Additional observations from a re-analysis of the deposited data

Results flagged for a closer look

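Barcodes outside the authors' cluster lists were not part of the comparisons above and still held 308 UMIs of the 10 genes. These 601 barcodes had a median of 212 UMIs, and 107 of them (17.8%, 14.8 to 21.1%) held a UMI of the 10 genes. Their level was 1793 CPM (1599 to 2005), above the 42.3 CPM of IELs. Spink4 made up 30.5% of these UMIs, Zg16 11.0% and Tff3 9.74%, and Hepacam2 had 0, which allows up to 21.5 CPM.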

How the results depend on the processing

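No paired analysis was possible because all cells belong to 1 group and no map ties cells to the 6 pooled samples. The summed fold of 5.58 stayed above 1 under every alternative run: 11.3 when CPM was averaged cell by cell, 10.7 with X1, 2.78 with X2, 11.3 with cells epithelial in both lists, 12 without the 4 deepest cells with an IEL label (an alternative chosen after seeing the data), 2.32 with k-means clusters and 5.28 without the cell with the most UMIs of the 10 genes, a secretory precursor. Without the stem cell of 23205 UMIs the level of the other epithelial cells was 6573 CPM, where it was 10452. The share of UMIs of 5.83% became 4.94% per cell, 7.02% without mitochondrial and ribosomal protein genes, 5.99% with X2, 6.12% with cells epithelial in both lists, 6.00% without the 4 deepest cells and 3.33% with k-means. The median of 6 genes per cell became 7.50 with X2 and 4.93 at 800 UMIs. Genes with a fold of at least 2 numbered 5 with X2, and between 6 and 10 otherwise. Pairs above independent detection numbered 10 with X2, 24 with cells epithelial in both lists, and 44 with joined barcodes or with 2 UMIs required. With X2 and with cells epithelial in both lists, Agr2 and Spink4 were in every cell and their pairs could not exceed independence. With X2 this also held for Fcgbp, found in every cell, and for Zg16, found in none. Joining barcodes sums UMIs within the groups compared, so 10 of the 100 alternative folds of single genes equal the main ones by construction. Of the 100, 4 fell below 1 where the main fold lay above it: Fcgbp (0.931), Nov (0.618) and Zg16 (at most 0.0724 if 0 is taken as 3 UMIs) with X2, and Zg16 (0.864) without its top cell. Tff3, whose main fold of 0.956 (0.778 to 1.17) had an interval around 1, was above 1 in 5 alternatives: 1.63 with X2, 1.98 with cells epithelial in both lists, 2.11 without the 4 deepest cells, 3.81 with k-means and 1.74 without the cell with the most Tff3 UMIs, an absorptive precursor. The cause was not tested where a setting alone does not show it. Of 80 alternative shares, 68 stayed within the interval of the main value. X2 held 4 secretory precursors, which limits every value from it.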
